A study of Mus musculus with 9 samples.

Results

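Hair cells are the mechanosensory cells of the inner ear, and many of the genes that cause inherited deafness when mutated act in them or in the epithelium around them. The expression of these genes was examined in the E10.5 mouse otic vesicle (OV) and in 2 non-otic tissue groups. Of 46 listed names, 37 were gene symbols on the array, and every probe that carried one of them was taken, whatever its value. This gave 59 probes of the 25697 on the array, and 37 of its 18120 gene symbols. There were 23 genes with 1 probe and 14 with several, up to 4. The symbols *Dfna5*, *Dfnb31*, *Gpr98*, *Lhfpl5*, *Loxhd1*, *Lrtomt*, *Myo3a* and *Slc26a5* were not found among the array's symbols, and the other unmatched entry was not a gene symbol. *Dfnb31* is an older name of *Whrn*, which was found.

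The tissue came from E10.5 embryos of the outbred CD-1 strain, collected from 3 litters, with no transgene or treatment named for any group. Each of the 3 groups had 3 arrays, each hybridized with RNA from 1 pool: intact dissected OVs, periotic tissue including mesenchyme and hindbrain, and whole embryos without the greater otic region (embryo-minus-otic). The pools hold several embryos, so p-values measure the spread between pools and not between embryos. In such bulk tissue, fewer cells that express a gene and less RNA in each cell cannot be told apart.

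The apical surface of a hair cell carries the hair bundle, rows of stereocilia filled with bundled actin and joined by tip links of cadherin-23 and protocadherin-15. Deflection of the bundle pulls on the tip links and opens the mechanotransduction channel, while unconventional myosins and the Usher proteins build the bundle and hold its parts together. The ribbon synapse at the base of the cell and the tight epithelium that seals the potassium-rich endolymph are further sites of inherited deafness. At E10.5 the OV is an epithelial sac that has not yet formed hair cells, and which of these genes already gave a signal in it was the question asked.

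Intensities of the 9 arrays were put on a log2 scale and quantile normalized, so every level below is a log2 normalized intensity and every difference is on that scale. A level can be compared between arrays for the same probe but not between probes. Fold Δ is the ratio of group means, and *q* is the p of limma with Benjamini-Hochberg adjustment over all 25697 probes, with *q* under 0.05 taken as a call. A probe was above background on an array when the deposited detection p-value was under 0.01. Between 43.9% and 47.3% of all probes were above background on each array, and the lowest such level was from 6.14 to 6.24. Where a group was above background on none of its arrays, the fold Δ against it is a lower bound.

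The dissection was checked with marker lists. Of 14 probes for OV genes such as *Oc90* and *Pax2*, 12 were called higher in OV than in each of the non-otic groups, and the OV sums of their intensity, 7806 to 8523, compared with 1178 to 1310 for periotic tissue and 1380 to 1452 for embryo-minus-otic. Of 18 probes for pan-epithelial genes, 17 were called higher in OV than in both groups, with sums of 13456 to 14159, 1482 to 1785 and 2247 to 2969 in the same order. Probes for hindbrain and neural tube genes summed to 1932 to 2191 in OV, 8763 to 10407 in periotic tissue and 3740 to 4607 in embryo-minus-otic, and of these 15 probes 6 passed the detection limit on each OV array while 8 passed on none, the latter with those of *Egr2*, *Hoxb1*, *Pax6*, *Pax7*, *Sox1* and *Sox3* among them. Mesenchyme probes summed to 2217 to 2490 in OV, next to 2550 to 3077 for periotic tissue and 5127 to 6060 for embryo-minus-otic, with 10 of 17 above background on all OV arrays. Neuroblast probes summed to 1833 to 2505, 3405 to 4322 and 2545 to 3025 in the same order, with 6 of 15 above background on all OV arrays. Erythroid probes summed to 41092, 30470 and 16622 on OV arrays 1, 2 and 3, to 64886 to 75731 in periotic tissue and to 86317 to 93104 in embryo-minus-otic. Heart and muscle probes summed to 1104, 669 and 668 on OV arrays 1, 2 and 3, to 669 to 685 in periotic tissue and to 9024 to 10227 in embryo-minus-otic. Of these 12 probes, 5 were above background on some but not all OV arrays. Liver and endoderm probes summed to 535 to 561, 565 to 614 and 976 to 1132 in the same order of groups. The part of epithelial, neural, mesenchymal, blood, muscle and endoderm cell content in the differences below was not tested.

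The sequence just before the start of transcription is given for *Espn*, *Myo7a* and *Ush1c*, the 3 bundle genes with the largest OV fold Δ against both non-otic groups. These are the 250 bases upstream of each annotated start, from RefSeq on mouse build GRCm38.p6, printed 5′ to 3′ in the direction of the gene. Capitals mark CANNTG, the E-box that proneural factors such as the *Atoh1* product can bind. Which start each probe's transcript uses was not determined.
*Espn*, start 1 (chr4:152152390-152152639, minus strand): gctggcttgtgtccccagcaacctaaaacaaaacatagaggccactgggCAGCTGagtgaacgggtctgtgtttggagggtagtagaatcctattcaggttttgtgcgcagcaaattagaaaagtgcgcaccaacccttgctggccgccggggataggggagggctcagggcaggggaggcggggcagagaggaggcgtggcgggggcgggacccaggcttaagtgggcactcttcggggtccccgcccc
*Espn*, start 2 (chr4:152136326-152136575, minus strand): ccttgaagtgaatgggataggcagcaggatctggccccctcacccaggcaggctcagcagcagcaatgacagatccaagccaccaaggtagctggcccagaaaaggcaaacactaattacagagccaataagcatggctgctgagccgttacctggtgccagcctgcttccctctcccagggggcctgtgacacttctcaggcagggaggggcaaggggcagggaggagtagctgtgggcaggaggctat
*Espn*, start 3 (chr4:152128926-152129175, minus strand): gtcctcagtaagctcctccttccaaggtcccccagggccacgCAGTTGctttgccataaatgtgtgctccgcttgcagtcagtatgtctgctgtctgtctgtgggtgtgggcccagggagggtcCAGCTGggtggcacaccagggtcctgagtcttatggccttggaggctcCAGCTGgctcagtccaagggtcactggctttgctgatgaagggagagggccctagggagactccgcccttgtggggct
*Myo7a*, start 1 (chr7:98119494-98119743, minus strand): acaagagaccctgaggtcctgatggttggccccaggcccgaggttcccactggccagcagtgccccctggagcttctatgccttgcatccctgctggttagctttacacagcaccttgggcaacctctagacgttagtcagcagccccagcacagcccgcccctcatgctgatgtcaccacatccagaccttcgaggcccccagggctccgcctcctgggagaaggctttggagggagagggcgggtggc
*Myo7a*, start 2 (chr7:98109249-98109498, minus strand): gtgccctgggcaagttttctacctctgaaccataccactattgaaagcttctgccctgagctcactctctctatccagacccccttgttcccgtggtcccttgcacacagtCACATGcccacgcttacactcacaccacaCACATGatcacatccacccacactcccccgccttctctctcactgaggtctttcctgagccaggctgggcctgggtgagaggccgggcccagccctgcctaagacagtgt
*Ush1c* (chr7:46238491-46238740, minus strand): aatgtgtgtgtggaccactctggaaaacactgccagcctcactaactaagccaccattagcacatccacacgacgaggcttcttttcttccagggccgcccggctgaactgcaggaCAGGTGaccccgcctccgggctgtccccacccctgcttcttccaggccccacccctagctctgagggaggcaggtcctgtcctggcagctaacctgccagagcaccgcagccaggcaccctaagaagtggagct
The CANNTG motif reads the same in form on both strands, and it occurred once in the first *Espn* window, at 3 places in the last and at none in the second. It occurred at 2 places in the second *Myo7a* window, at none in the first, and at 1 place in the *Ush1c* window. Of 32851 windows of the same length before annotated starts, 66.2% held it, so its presence is common. The TATAAA motif, searched on both strands and held by 12.4% of all windows, was in none of these 6, nor was GATAA, held by 22.6% and also searched on both strands. GGGCGG, held by 32.7% of windows on either strand, was found at 2 places in the first *Espn* window, 1 in the last, 2 in the first *Myo7a* window and 1 in the *Ush1c* window. A match is a match of letters and does not show binding.

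Of the 59 probes, 15 were above background on all 3 OV arrays, against 42.1% of all probes on the array. They belonged to 10 genes: *Cib2*, *Diap1*, *Espn*, *Ildr1*, *Myo6*, *Myo7a*, *Rdx*, *Triobp*, *Ush1c* and *Whrn*. A further 5 genes were above background on only 1 or 2 OV arrays. These were *Clrn1* on 2, and *Pou3f4*, *Slc17a8*, *Tmc1* and *Tmie* on 1 each. The remaining 22 genes were above background on no OV array. By probe this was 38 of 59, against 51.3% of all probes. In periotic tissue 13 of the 59 probes were above background on all 3 arrays, against 42.5% of all probes, and in embryo-minus-otic 12 were, against 41.1%. With a detection p-value under 0.05 the OV count rose to 19 probes of 13 genes, and 46.4% of all probes.

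**Figure D1:**
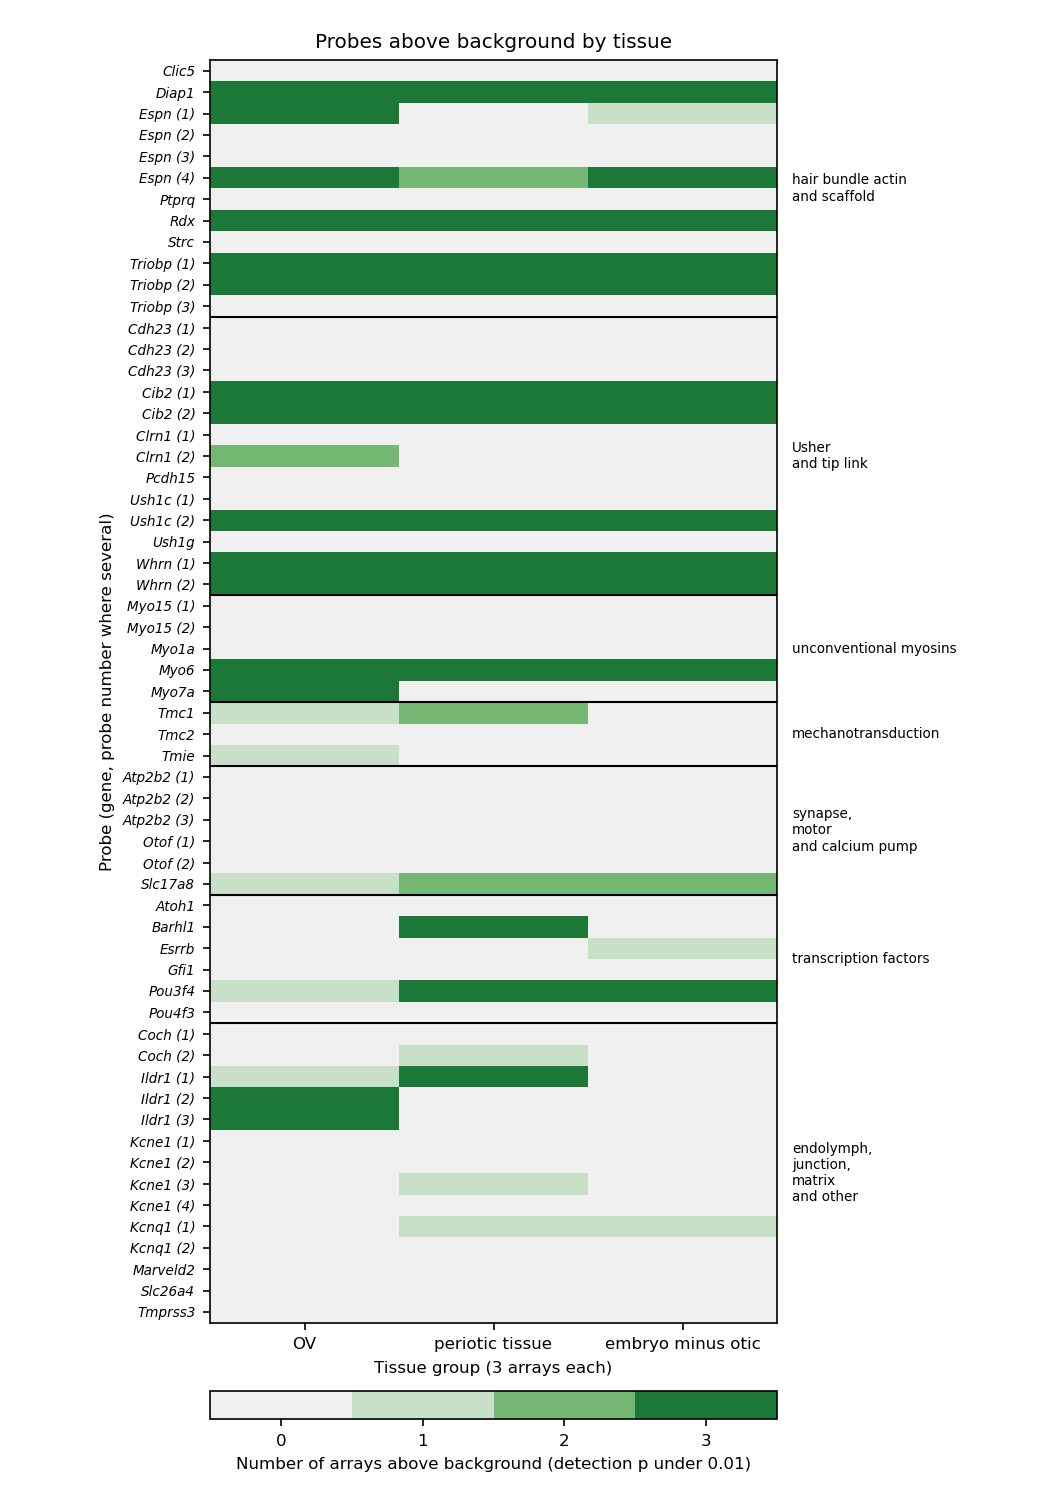
Number of arrays on which each member probe was above background (shade, 0 to 3) in each tissue group (columns), with probes (rows) grouped by the role of their gene; numbers in brackets tell apart the probes of 1 gene. In the OV column 15 probes are darkest, and *Myo7a*, *Espn* (1), *Ildr1* (2) and *Ildr1* (3) are darkest in OV alone.

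The 17 genes above background on none of the 9 arrays were the tip link cadherins *Cdh23* and *Pcdh15*, the scaffold gene *Ush1g*, the channel gene *Tmc2*, the synaptic gene *Otof*, the calcium pump gene *Atp2b2*, the stereocilia genes *Clic5*, *Ptprq* and *Strc*, the myosin genes *Myo15* and *Myo1a*, the transcription factor genes *Atoh1*, *Gfi1* and *Pou4f3*, the tight junction gene *Marveld2*, the anion exchanger gene *Slc26a4* and the protease gene *Tmprss3*. By probe, 33 of the 59 were above background on no array, against 11788 of all 25697 probes. The 33 include further probes of *Espn*, *Triobp*, *Clrn1*, *Ush1c*, *Coch*, *Kcne1* and *Kcnq1*. No probe of the 33 was called in any comparison, and their fitted OV differences ran from -0.18 to 0.19 against embryo-minus-otic and from -0.20 to 0.19 against periotic tissue. For these genes no signal was detectable at this array's background, which does not show that the RNA was absent.

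Compared with embryo-minus-otic, 10 of the 59 probes were called higher in OV and 2 lower, against 5.89% and 5.51% of all probes. Compared with periotic tissue, 7 were higher and 4 lower, against 5.07% and 5.15%. Both comparisons use the same 3 OV arrays, so their calls are not independent. In both, the same direction was called for 7 probes higher, against 3.51% of all probes, and for 2 lower, against 2.65%. The 7 higher probes were those of *Espn* (2 probes), *Ildr1* (2 probes), *Myo7a*, *Ush1c* and *Diap1*, and the lower ones were 1 probe of *Whrn* and that of *Pou3f4*. The median difference of the 59 probes was -0.03 against embryo-minus-otic and -0.01 against periotic tissue, and over all probes both medians were 0.00.

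**Figure D2:**
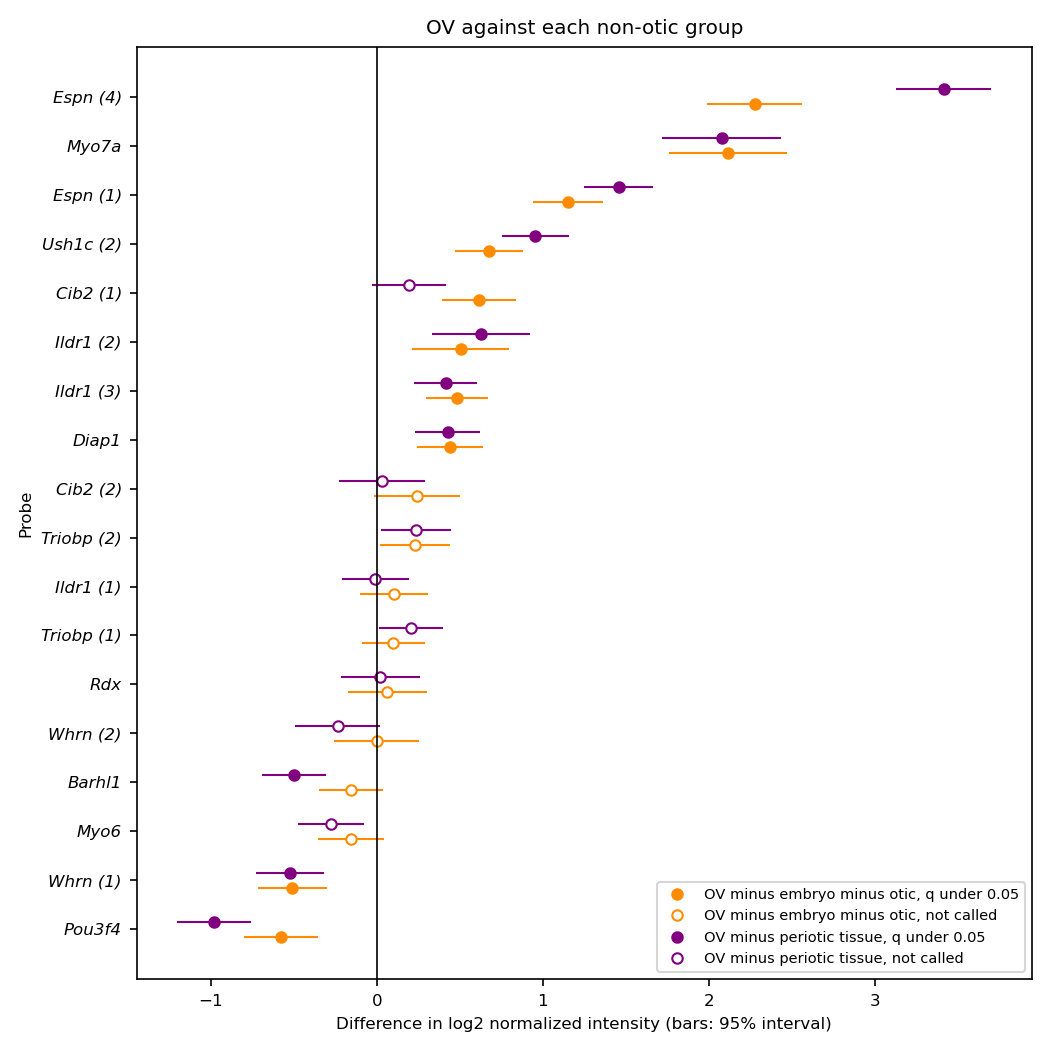
Difference in log2 normalized intensity (horizontal axis, bars are 95% intervals) between OV and embryo-minus-otic (orange) or periotic tissue (purple) for the member probes (rows) that passed the detection limit on every array of some group; filled points are called at *q* under 0.05. *Espn* (4) and *Myo7a* lie farthest to the right and *Pou3f4* farthest to the left, and most other probes lie within 1 log2 unit of 0. For groups not above background the plotted value is the fitted difference and not the bound given in the text.

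Among genes of hair bundle actin and its scaffold, 6 of 12 probes were above background on all OV arrays and 3 were called higher in OV than in both groups. *Espn* encodes espin, which bundles the actin of stereocilia. Its probe ILMN_3107059, designed to transcript variant 5, read 9.59, 9.93 and 10.1 in OV, 6.64, 6.16 and 6.57 for periotic tissue, and 7.59, 7.59 and 7.60 for embryo-minus-otic. The 3 groups did not overlap, with OV highest and periotic tissue, above background on 2 of 3 arrays, lowest. The OV fold Δ was 4.85 against embryo-minus-otic (log2 difference 2.28, 95% interval 1.99 to 2.56, *q* = 9.24e-09) and 10.7 against periotic tissue (3.42, 3.13 to 3.70, *q* = 1.03e-10). Embryo-minus-otic was 2.20-fold higher than periotic tissue (*q* = 4.63e-05), the single lower call of a member probe in periotic tissue against embryo-minus-otic, where 2.95% of all probes were lower.

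A second *Espn* probe, ILMN_2731578, read 7.17, 7.31 and 7.24 in OV, 5.89, 5.80 and 5.66 for periotic tissue and 6.25, 5.95 and 6.07 for embryo-minus-otic. Every OV array was again above every non-otic array, while periotic tissue was above background on no array and embryo-minus-otic on 1 of 3. The OV fold Δ was 2.22 against embryo-minus-otic (*q* = 6.44e-07) and at least 2.08 against periotic tissue (*q* = 3.75e-08). The other *Espn* probes, ILMN_3045869 (designed to transcript variant 1) and ILMN_3076219 (no variant named), were above background on no array. Their OV levels ran from 5.85 to 6.07 and their non-otic levels from 5.86 to 6.11, with no call, so the probes of this gene disagree.

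*Diap1* encodes a formin that elongates actin filaments. Its probe read 7.09, 7.02 and 7.15 in OV, 6.72, 6.75 and 6.52 for periotic tissue, and 6.74, 6.55 and 6.65 for embryo-minus-otic, all above background. OV lay above both other groups, which overlapped each other, by 1.36-fold (*q* = 0.00445) and 1.34-fold (*q* = 0.00566) against embryo-minus-otic and periotic tissue. The call was lost in both comparisons when the arrays were not normalized.

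*Triobp*, whose product bundles actin in the stereocilia rootlets, and *Rdx*, whose product radixin links actin to the membrane, had no call. The *Rdx* probe and *Triobp* probes ILMN_2519676 and ILMN_2519677 were above background on all 9 arrays, and *Triobp* probe ILMN_3063650 on none. Probe ILMN_2519677 of *Triobp* read 11.3, 11.3 and 11.5 in OV, between 11.0 and 11.2 in periotic tissue and between 11.0 and 11.3 in embryo-minus-otic. Its OV arrays were above all non-otic arrays, but the differences of 0.23 (95% interval 0.02 to 0.44, *q* = 0.179) and 0.24 (0.03 to 0.45, *q* = 0.18) did not pass the adjustment. In probe ILMN_2519676 OV overlapped embryo-minus-otic, with differences of 0.10 (*q* = 0.617) against that group and 0.21 (*q* = 0.208) against periotic tissue. *Rdx* read 6.34 to 6.60 in OV, 6.32 to 6.72 in periotic tissue and 6.35 to 6.46 in embryo-minus-otic, with fully overlapping groups and intervals of -0.18 to 0.30 and -0.22 to 0.26. A difference of more than 0.30 between OV and either group thus lay outside both *Rdx* intervals.

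Counting without a test, 10 of the 59 probes had every OV array above all 6 non-otic arrays, against 6.86% of all probes. These were the 7 called ones and ILMN_2519677 of *Triobp*, ILMN_3136064 of *Clrn1* and the *Tmie* probe. For 6 probes every OV array was below all 6 others, against 5.6% of all probes: those of *Pou3f4*, *Esrrb* and *Ptprq*, 1 of *Whrn* and 2 of *Kcne1*. The *Ptprq* probe and *Kcne1* probe ILMN_2757772 were above background on no array, and the *Esrrb* probe and *Kcne1* probe ILMN_2759207 on 1 each, so their order carries little or no information on RNA level.

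**Figure D3:**
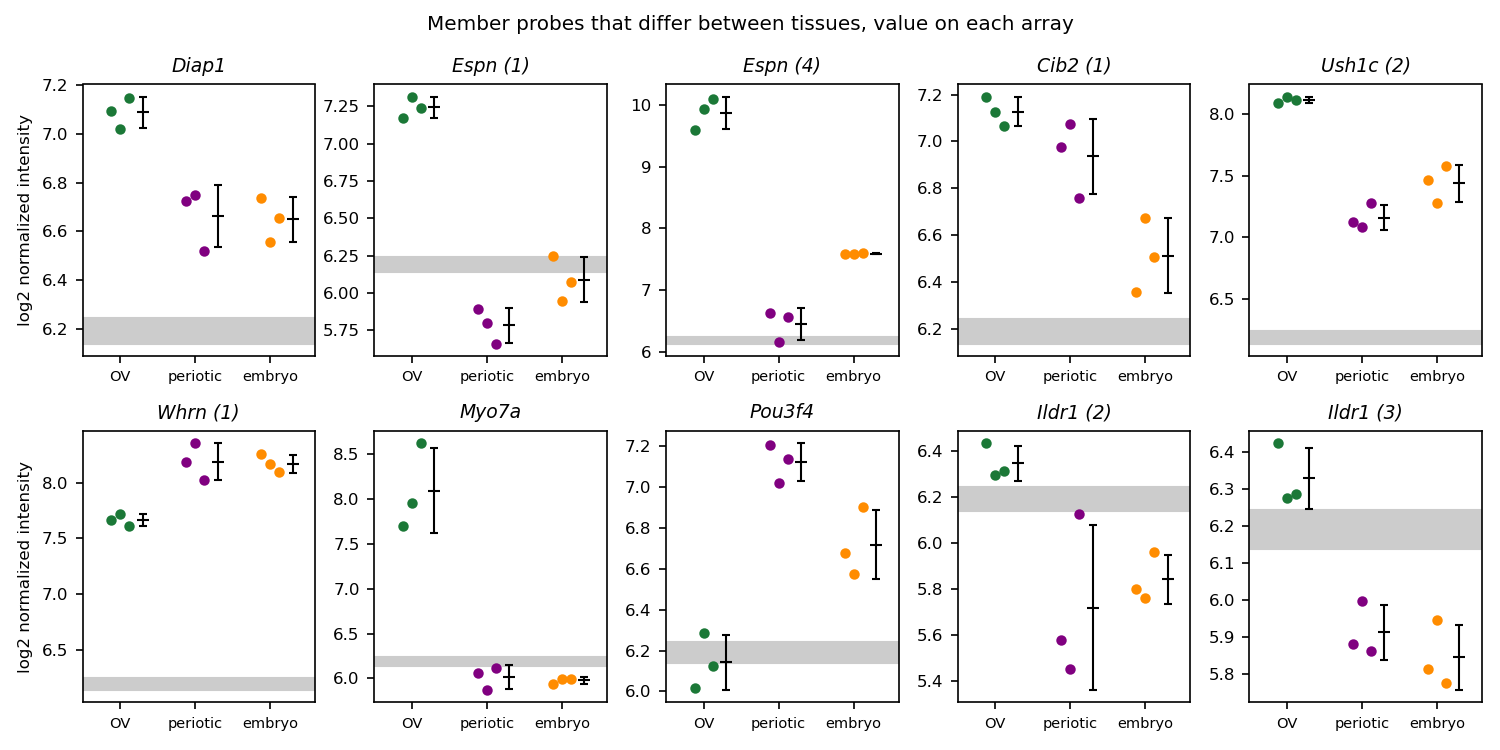
Log2 normalized intensity (vertical axis, a separate scale in each panel) of the 10 member probes given in full, with 1 coloured point per array in OV, periotic tissue and embryo-minus-otic, and a black bar for the mean ± SD of the 3 arrays. The grey band is the range over arrays of the lowest level above background; *Myo7a* stands clear of the band in OV alone, and *Pou3f4* is clear of it in both non-otic groups and not in OV.

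In the unconventional myosins, 2 of 5 probes were above background on all OV arrays. *Myo7a* encodes myosin VIIa, a motor of stereocilia that anchors the Usher complex. It read 7.70, 7.96 and 8.62 in OV, 6.06, 5.87 and 6.12 for periotic tissue, and 5.94, 6.00 and 6.00 for embryo-minus-otic. All 3 OV arrays were above background and none of the 6 others was, and the groups were far apart. The OV mean of 8.09 ± 0.476 (SD, n = 3) was at least 3.67-fold above embryo-minus-otic (*q* = 2.69e-07) and at least 3.76-fold above periotic tissue (*q* = 3.01e-07). Its SD in OV was the largest among the 59 probes, through the high value of OV array 3. That array had the lowest erythroid sum, and the part of blood content in this *Myo7a* value was not tested. Without OV array 3 the fitted log2 differences, which are no bounds, went from 2.12 and 2.08 to 1.86 and 1.82.

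*Myo6*, whose product myosin VI moves toward the base of the stereocilia, was above background on all 9 arrays. It read 7.78, 7.66 and 7.65 in OV, 7.89, 7.92 and 8.10 for periotic tissue, and 7.84, 7.96 and 7.75 for embryo-minus-otic. The OV arrays lay below all periotic arrays and overlapped embryo-minus-otic. Neither difference passed, at -0.28 (95% interval -0.47 to -0.08, *q* = 0.0806) against periotic tissue and -0.16 (-0.36 to 0.04, *q* = 0.382) against embryo-minus-otic. *Myo15* and *Myo1a* were above background on no array, with OV levels from 5.39 to 5.87.

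Among genes of the Usher proteins and the tip link, 5 of 13 probes were above background on all OV arrays. *Ush1c* encodes harmonin, the scaffold at the upper end of the tip link. Probe ILMN_2501719, for transcript variant a1, read 8.09, 8.14 and 8.11 in OV, 7.12, 7.08 and 7.28 for periotic tissue and 7.46, 7.28 and 7.58 for embryo-minus-otic. OV was above both groups on every array, and all 9 arrays were above background. The OV fold Δ was 1.60 against embryo-minus-otic (log2 difference 0.68, 95% interval 0.47 to 0.88, *q* = 1.24e-04) and 1.94 against periotic tissue (0.96, 0.75 to 1.16, *q* = 3.19e-06). The second *Ush1c* probe, ILMN_2484636, for transcript variant b3, was above background on no array and read 5.58 to 5.95 in OV. The higher level in OV was thus seen with the variant a1 probe only.

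*Whrn* encodes whirlin, a scaffold of the stereocilia tip and base. Probe ILMN_2476329 read 7.66, 7.72 and 7.61 in OV, 8.19, 8.35 and 8.02 for periotic tissue, and 8.25, 8.17 and 8.09 for embryo-minus-otic. OV was the lowest group on every array, and the 2 other groups overlapped. Embryo-minus-otic was 1.42-fold above OV (*q* = 0.00193) and periotic tissue 1.44-fold (*q* = 0.00147), although the first of these calls was lost with median normalization (*q* = 0.23) and with none (*q* = 0.147). The other *Whrn* probe, ILMN_3082031, read 6.67, 6.48 and 6.52 in OV, 7.03, 6.79 and 6.56 for periotic tissue, and 6.74, 6.42 and 6.52 for embryo-minus-otic. It was above background throughout with overlapping groups, and gave no call (*q* = 0.997 and *q* = 0.312 against embryo-minus-otic and periotic tissue).

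*Cib2* encodes a calcium-binding protein of the transduction complex. Its probe ILMN_2659168 read 7.19, 7.13 and 7.06 in OV, 6.98, 7.07 and 6.76 for periotic tissue and 6.36, 6.67 and 6.51 for embryo-minus-otic. OV was 1.53-fold above embryo-minus-otic (*q* = 7.56e-04, or 0.123 with no normalization) and overlapped periotic tissue, where the difference was 0.19 (95% interval -0.03 to 0.41, *q* = 0.367). Periotic tissue was above embryo-minus-otic too (*q* = 0.0243). The second probe, ILMN_2744587, read 7.41, 7.71 and 7.13 in OV, 7.32 to 7.46 in periotic tissue and 7.06 to 7.24 in embryo-minus-otic, with no call. *Clrn1*, for the membrane protein clarin-1, had 2 probes. Probe ILMN_3136064 read 6.19, 6.13 and 6.63 in OV and 5.87 to 6.09 in the non-otic groups. It was above background on 2 OV arrays and on no other, and the differences of 0.38 (*q* = 0.053) and 0.35 (*q* = 0.0821) fell short of the threshold. Probe ILMN_3069934 was above background on no array and read 5.66 to 5.73 in OV, with differences of -0.04 and -0.03 and no call.

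**Figure D4:**
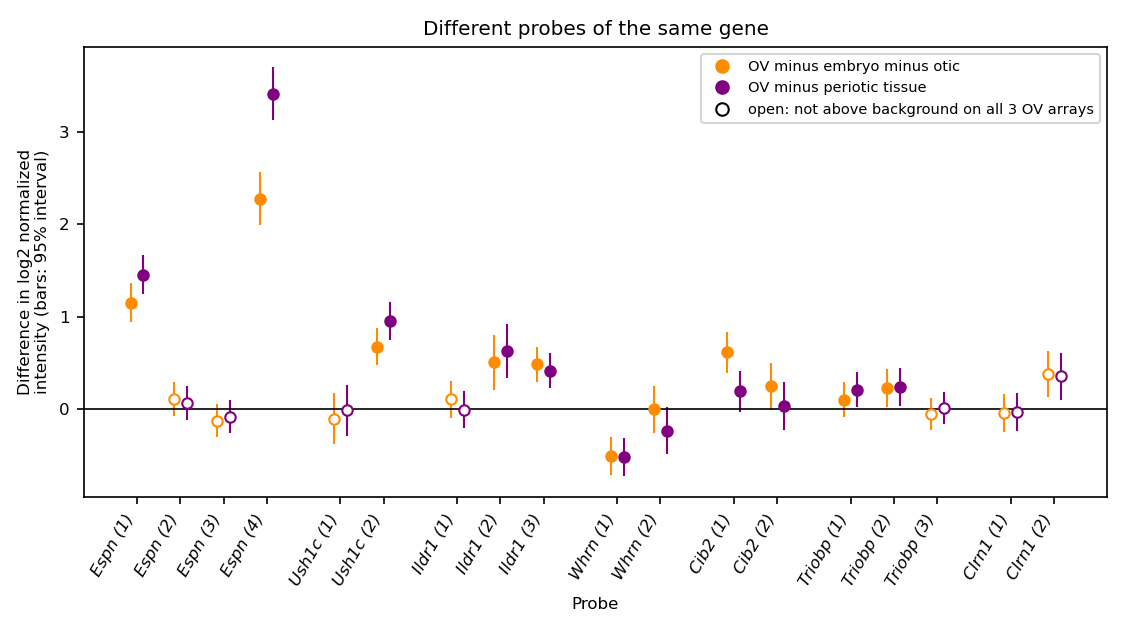
Difference in log2 normalized intensity (vertical axis, bars are 95% intervals) between OV and embryo-minus-otic (orange) or periotic tissue (purple) for each probe of 7 genes with several probes; open points are probes not above background on all 3 OV arrays. In *Espn*, *Ush1c* and *Ildr1* probes of the same gene lie both near 0 and above it.

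Of the 3 probes for mechanotransduction genes, none was above background on all OV arrays. *Tmc1*, for a subunit of the transduction channel, read 6.25, 6.05 and 6.21 in OV, 6.21, 6.21 and 6.17 for periotic tissue, and 5.89, 5.91 and 5.74 for embryo-minus-otic. OV and periotic tissue overlapped, at or next to the limit of detection on 1 and 2 arrays, and both were called higher than embryo-minus-otic (*q* = 0.0251 and *q* = 0.0264). *Tmie*, for a channel partner, read 6.01, 6.36 and 6.20 in OV, 5.76 to 5.99 in periotic tissue and 5.63 to 5.92 in embryo-minus-otic, with a call against embryo-minus-otic (*q* = 0.021) and none against periotic tissue (*q* = 0.125). Every call of these *Tmc1* and *Tmie* probes was lost on leaving out certain single arrays, and both genes were singled out after their values were seen.

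In the synapse and calcium pump group, none of 6 probes passed the detection limit on all OV arrays and none was called. *Slc17a8*, for the vesicular glutamate transporter of the inner hair cell, read 6.22, 6.13 and 6.11 in OV, 6.14 to 6.24 in periotic tissue and 6.17 to 6.40 in embryo-minus-otic. It was above background on 1, 2 and 2 arrays of these groups, which overlapped.

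Of the 6 transcription factor probes, none passed the detection limit on all OV arrays. The 2 with calls were lower in OV, *Pou3f4* against both non-otic groups and *Barhl1* against periotic tissue only. *Pou3f4* is an X-linked gene whose product acts in the mesenchyme around the ear and in the neural tube. It read 6.01, 6.28 and 6.13 in OV, 7.20, 7.02 and 7.14 for periotic tissue and 6.67, 6.57 and 6.90 for embryo-minus-otic. The groups did not overlap, with periotic tissue highest and OV, above background on 1 array, lowest. Periotic tissue was 1.97-fold above OV (log2 difference -0.98 for OV, 95% interval -1.20 to -0.76, *q* = 7.06e-06) and embryo-minus-otic 1.49-fold (-0.58, -0.80 to -0.35, *q* = 0.00137). Periotic tissue was also 1.32-fold above embryo-minus-otic (*q* = 0.0323).

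*Barhl1*, a homeobox gene of hair cells and of the hindbrain, was above background on all periotic arrays and on no other array. It read 6.24, 6.35 and 6.23 in periotic tissue, 5.71, 5.71 and 5.90 in OV, and 6.03, 5.89 and 5.87 in embryo-minus-otic. Periotic tissue was at least 1.05-fold above OV (*q* = 0.00125) and at least 1.04-fold above embryo-minus-otic (*q* = 0.0341). The summed hindbrain and neural tube markers given above were also highest in periotic tissue, and the part of hindbrain tissue in the *Pou3f4* and *Barhl1* values was not tested. *Esrrb*, for a nuclear receptor, was above background on 1 embryo-minus-otic array, at 6.26, with no call. *Barhl1* was singled out after its values were seen.

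Between the non-otic groups, 4 member probes were higher in periotic tissue, against 2.86% of all probes. They were those of *Pou3f4*, *Barhl1* and *Tmc1* and *Cib2* probe ILMN_2659168, and without periotic array 1 none of the 4 was called. Without periotic array 2 or 3 or embryo-minus-otic array 3 a single probe was, and without embryo-minus-otic array 1 or 2 there were 2.

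Among genes of the endolymph, junctions and matrix, 2 of 14 probes were above background on all OV arrays, both of *Ildr1*. The gene encodes angulin-2, a receptor that builds the contacts where 3 epithelial cells meet. Probe ILMN_2734693 read 6.43, 6.29 and 6.31 in OV, 5.58, 5.45 and 6.13 for periotic tissue and 5.80, 5.76 and 5.96 for embryo-minus-otic. All OV arrays were above background and no other array was, without overlap but close to the limit. OV was at least 1.10-fold above embryo-minus-otic (*q* = 0.0255) and at least 1.12-fold above periotic tissue (*q* = 0.00632). The first of these calls was lost without any 1 of the OV arrays (*q* from 0.0597 to 0.0984) and without embryo-minus-otic array 1 or 2 (*q* = 0.0631 and *q* = 0.0815). Median normalization ended both calls (*q* = 0.105 and *q* = 0.0535). In all, the call against embryo-minus-otic was lost in 7 of 16 alternatives, with *q* up to 0.463.

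Probe ILMN_2857684 of *Ildr1* read 6.42, 6.27 and 6.29 in OV, 5.88, 6.00 and 5.86 for periotic tissue, and 5.81, 5.94 and 5.78 for embryo-minus-otic. It too was above background in OV alone, with bounds of at least 1.08-fold (*q* = 0.00141) and at least 1.11-fold (*q* = 0.00484). With no normalization neither was called (*q* = 0.588 and *q* = 0.345). The third probe, ILMN_1238808, gave another picture, above background on 1 OV array, on all 3 periotic arrays and on no embryo-minus-otic array, with no call. It read 6.37, 6.11 and 6.13 in OV and 6.15 to 6.25 in periotic tissue, which overlap.

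The other genes of this group were above background on no OV array. *Kcnq1* and *Kcne1*, which encode the potassium channel that secretes into the endolymph, and *Coch*, for the matrix protein cochlin, each passed on 1 periotic array, and *Kcnq1* also on 1 embryo-minus-otic array. *Kcne1* probe ILMN_2759207 read 5.76, 5.79 and 5.84 in OV and 6.01, 6.04 and 6.25 in periotic tissue. It was called lower in OV (*q* = 0.0372), a call lost on leaving out any 1 of the OV arrays, and the other 3 *Kcne1* probes had none. It was singled out after its values were seen.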

How the data were processed

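The 9 RNA pools were hybridized to 1-colour MouseRef-8 v2.0 bead arrays. The deposited table holds, per probe and array, an average signal from GenomeStudio, an intensity not normalized between arrays, and a detection p-value. Whether background was subtracted is not given in the sources used here, and no deposited intensity was at or below 0. Groups follow the tissue label of each array. Values were log2 transformed with a floor of 1, which changed none, and then quantile normalized across arrays. The limma package (3.58.1, R 4.3.3) fitted all 25697 probes in 1 model of 3 groups with empirical Bayes moderation, adjusted by Benjamini-Hochberg in each comparison, with a call at *q* under 0.05. The steps were tested on simulated data. No replicate pairing was used. The same-numbered arrays of different groups correlated from 0.00798 to 0.182 in their deviations, with 5 of 9 pairs over 0.1, and arrays with different numbers from -0.143 to 0.0491. The labels name no shared litter, so the numbers were not taken to pair the arrays. The paper describes the non-otic groups as dissected from what remained of the embryos after the OVs were taken. Pools of different groups may therefore share embryos, which the unpaired fit does not take into account. Whether same-numbered pools came from the same litter is not given, and these correlations do not settle it.

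For a lower bound, the brighter group's mean was set against the mean over arrays of the higher of the dim probe's value and the lowest level among probes above background on that array. Probes were not averaged by gene. Full values were given for member probes called in OV against both non-otic groups in 1 direction, called in either with a fold Δ over 1.5, or above background on each OV array and on all arrays of neither other group. Members, lists and tests were chosen with earlier results of these data known. Of the 37 symbols, 36 matched a RefSeq symbol of GRCm38.p6 and 1 (*Diap1*) an older name. Sequences are RefSeq's, cut to the bases before the start, and the probes' own sequences were not analysed here. Some genes of the other lists are not reported here. With 3 arrays a group, their number limits the precision.

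Tried as alternatives were median or no normalization, neqc (offset 16), a filter on detected probes, a replicate block, 2-group fits, an intensity trend, leaving out each array, a detection p-value under 0.05, detection on at least 2 of 3 OV arrays, and 1 probe per gene.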

Additional observations from a re-analysis of the deposited data

How the results depend on the processing

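The calls of *Espn* probes ILMN_3107059 and ILMN_2731578, *Myo7a*, *Ush1c* probe ILMN_2501719 and *Pou3f4* in both OV comparisons kept their direction and their side of the threshold under all 16 alternatives. Background correction with neqc gave larger fold Δ, 5.85 and 19.0 for *Espn* probe ILMN_3107059 and 9.43 and 8.85 for *Myo7a* against embryo-minus-otic and periotic tissue, the latter fitted and not bounded. Median normalization left 1 probe lower in OV than in embryo-minus-otic, 1 lower than in both groups and 1 higher in periotic tissue than in embryo-minus-otic. With no normalization, which moved the median of all probes by -0.11 in OV and -0.12 in periotic tissue against embryo-minus-otic, these counts were 1, 1 and 0, and 4 probes were higher in OV than in embryo-minus-otic, 2 lower than in periotic tissue and 4 higher than in both groups. The cause was not tested. On leaving out 1 array at a time, the counts against embryo-minus-otic were 8 to 10 higher and 2 to 3 lower, those against periotic tissue 7 to 8 higher and 3 to 4 lower, and those against both 6 to 7 higher and 2 lower. Between the non-otic groups they were 0 to 4 higher in periotic tissue (0 without periotic array 1, 1 without periotic array 2 or 3 or embryo-minus-otic array 3, and 2 without embryo-minus-otic array 1 or 2) and 1 to 2 lower. The uncalled *Tmc1* difference between OV and periotic tissue of -0.03 ranged from -0.0682 to 0.0317 on leaving out 1 array, and turned without OV array 2. Pairing by replicate number is not given by the labels. With the replicate block, 11 and 8 probes were higher in OV than in embryo-minus-otic and periotic tissue, 8 in both and 2 lower in both. The call added against periotic tissue was that of *Tmie* (*q* = 0.0468). The probe added against embryo-minus-otic was not identified. With 1 probe per gene, 4 genes were higher than in both groups. The count above background on all OV arrays, 15, was 15 to 16 without 1 OV array. Probes within about 0.1 of the lowest detected level, such as those of *Ildr1*, *Tmc1*, *Tmie* and *Barhl1*, are limited by signal over background.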

Other observations

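Other genes of the same biology were taken from lists that leave out the 37 genes above. Of 34 probes for 28 other hair cell genes, 6 were above background on all OV arrays, 1 was called higher in OV than in each of the non-otic groups and 1 lower, against 42.1%, 3.51% and 2.65% of all probes. A single call in each direction among 34 probes is close to these shares. The higher one was *Fscn1*, for the actin bundler fascin, with a difference of 0.32 against embryo-minus-otic and 0.40 against periotic tissue (limma with Benjamini-Hochberg adjustment, *q* = 0.0468 and *q* = 0.0157). The lower one was probe ILMN_2827729 of *Calb2*, for the calcium buffer calretinin, which was above background on all periotic arrays and on no OV array. Periotic tissue was at least 1.38-fold above OV. The other *Calb2* probe, ILMN_2597412, was above background on no array and had no call. *Fscn1* and *Calb2* were named after their values were seen.

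Of 44 probes for 33 other inherited deafness genes, 19 were above background on all OV arrays, 12 were called higher in OV than in each of the non-otic groups and 3 lower, beside the same shares of all probes. Probes with a large difference against the larger non-otic mean included those of *Gata3* (2.87), *Col2a1* (2.26 and 2.19), *Eya1* (1.30) and *Gjb2* (0.70). *Gjb2* probes ILMN_2999627 and ILMN_2604713 had 0.58 and -0.01, the latter above background on no array and not called. A second *Eya1* probe was above background on no non-otic array, and its OV mean lay at least 1.91-fold above embryo-minus-otic. *Gata3* and *Eya1* encode transcriptional regulators of early ear development and also stand in the OV marker list. *Col2a1* encodes a collagen of cartilage and of the otic capsule, and *Gjb2* the gap junction protein connexin 26. The lower ones included 2 probes of the endothelin receptor gene *Ednrb* (-2.95 and -2.53).

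The array symbol *Dfna5h*, an older name of *Gsdme* as *Dfna5* is, was outside the list by its spelling. Its probe was above background on all 9 arrays, with group means of 7.30 in OV, 7.38 in periotic tissue and 7.32 in embryo-minus-otic, and no call.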
